A study of Mus musculus with 6 samples.

Results

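Pparg, Ppard, Nr1h2, Nr1h3, Rxra, Rara, Nr3c1, Vdr, Nr1d1 and Nr1d2 encode nuclear receptors that act in the metabolism of macrophages. Their RNA was measured by array in mouse bone marrow-derived macrophages (BMDMs) that were left untreated, given lipopolysaccharide (LPS), or given LPS after a small-molecule inhibitor of the deubiquitinase USP7 (LPS+USP7i). The 10 genes were chosen by name, as every spot that is not a control and whose gene name on the array is one of these symbols. They are 10 of 34787 gene names on the array and are read by 16 probes. Of the 10 genes, 4 have 1 probe (Pparg, Nr1h2, Vdr and Nr1d1) and 6 have 2.

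Each group held 2 arrays, which the labels call independent experiments. The cells came from the bone marrow of female wild-type mice of strain C57/B6 aged 6 to 8 weeks and had grown for 7 days in medium conditioned by L929 cells, as the labels give it. The study's methods differ from the labels in the age and in the spelling of the strain. LPS was given for 4 hours, at 100 ng/ml in the series text although the sample labels print another unit of volume, and the inhibitor at 10 µM from 30 min before LPS. Whether the untreated and LPS cells received the inhibitor's solvent is not stated, and no group received the inhibitor without LPS. All arrays lay on 1 slide, with each treatment at its own position on it, so that treatment and slide position cannot be told apart, and arrays of the same replicate number share the other index of the position. Each array held 59305 spots that are not controls, for 55681 probes. Of these spots, 25002 were well above background on the array with the fewest and 27467 on that with the most.

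Nuclear receptors are transcription factors, most of which are switched by small lipophilic ligands. The PPARs sense fatty acids, the LXRs (Nr1h2 and Nr1h3) oxysterols, RAR alpha retinoic acid, the vitamin D receptor calcitriol and the glucocorticoid receptor (Nr3c1) cortisol or corticosterone, while the REV-ERBs (Nr1d1 and Nr1d2) bind heme and repress genes of the circadian clock. Many of them bind DNA as a dimer with RXR and recruit corepressors or coactivators, and in macrophages they regulate lipid handling and restrain inflammatory genes.

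Values are log2 signals after quantile normalization, on which a difference of 1 is a 2-fold difference. A probe was called higher or lower when its p in limma, adjusted over 55680 probes, was under 0.05, and a gene was represented by its probe with the highest mean signal. The p-values measure the spread between these arrays, and their number, 2 in a group, limits the precision. With 2 arrays against 2, the smallest two-sided p of an exact permutation test is 0.333. The LPS treatment was visible in Tnf, the gene of an inflammatory cytokine, at 9.43 and 9.14 in untreated cells, 16.89 and 16.90 after LPS, and 16.14 and 16.10 after LPS+USP7i. Il6, another cytokine gene, rose by 11.86 with LPS (SE 0.57, adjusted p = 0.00326, higher in 4 of 4 array pairs). Usp7, which encodes the inhibitor's target, was at 11.95 and 11.98 untreated, 12.41 and 12.40 after LPS, and 12.11 and 12.43 after LPS+USP7i.

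All 8 macrophage markers (Csf1r, Cd68, Adgre1, Itgam, Lyz2, Cd14, Mertk and Fcgr1) were well above background on all 6 arrays, and Csf1r was the brightest of them on 5 arrays and Cd68 on the second LPS+USP7i array. Their summed signal was 729329 and 721266 in untreated cells, 723673 and 748579 after LPS, and 628259 and 587336 after LPS+USP7i. The markers did not move alike between LPS and LPS+USP7i, where Cd14, which LPS had raised by 1.69 (adjusted p = 0.00518), was lower by −1.31 and Fcgr1 by −1.60 (adjusted p = 0.0184 and 0.0317), while Mertk, Adgre1 and Csf1r had differences of −1.20, −0.57 and −0.22 and Cd68, Itgam and Lyz2 of 0.16, 0.31 and 0.15, not called. At an unadjusted p under 0.05, 1 of the 8 was higher and 4 lower there (median −0.39). Against untreated cells, Itgam was lower with LPS (−0.66, adjusted p = 0.0233) and Fcgr1 with LPS+USP7i (−1.26, adjusted p = 0.0374). Of 6 markers of neutrophils and their precursors, 4 or 5 were above background on each array, with Elane the brightest and sums between 4029.7 and 4610.9. The sums hide differences between these markers. Their median difference was 0.73 for LPS minus untreated and −1.19 for LPS+USP7i minus LPS, with none called in limma. In the latter, Mpo went from 8.65 and 6.67 to 6.49 and 4.84, and Camp from 6.68 and 8.40 to 4.95 and 6.70. The means of Ly6g, Prtn3 and Ngp were also lower there, while Elane went from 11.09 and 11.36 to 11.78 and 11.91. Of 4 B cell markers, 2 to 4 were above background, with Cd79b the brightest and sums of 1043.1 and 656.4 untreated, 1137 and 517.7 after LPS, and 685.8 and 281 after LPS+USP7i. The lists for T and NK cells (4 markers, Cd3e the brightest, sums 593.9 to 782.5), dendritic cells (5 markers, 0 or 1 above background, sums of 39.7 and 45.9 untreated, 123.6 and 130.7 after LPS, and 84 and 94.6 after LPS+USP7i, with Zbtb46 at least 5.65-fold higher with LPS and 4.41-fold with LPS+USP7i than untreated, adjusted p = 0.00435 and 0.00806), mast cells and basophils (4 markers, sums 22.3 to 210.5), erythroid cells (3 markers, sums 21.9 to 31.9) and fibroblasts (4 markers, sums 41.7 to 88.3) had 2 or fewer markers above background on any array. The part of these cells in the results was not tested, and in bulk RNA fewer cells of a type cannot be told apart from less RNA per cell.

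LPS lowered 3 of the 10 receptor genes (Pparg, Ppard and Rara) and raised 1 (Nr3c1). Of all genes tested, 12.8% were called lower with LPS and 7.98% higher. With LPS+USP7i compared with LPS alone, 2 of the 10 were called higher (Pparg and Ppard), where 5.52% of all genes were, and 0 were called lower in limma, where 4.27% of all genes were. At an unadjusted p under 0.05, 7 of the 10 were higher and 2 lower (Nr1h3 and Nr3c1) in that comparison, as were 4989 and 4060 of 34786 genes. LPS+USP7i compared with untreated cells left 2 genes lower (Pparg and Rara) and 1 higher (Ppard), beside 8.71% and 6.16% of all genes. The median log2 difference of the 10 genes was −0.94 for LPS against untreated, 0.93 for LPS+USP7i against LPS and 0.14 for LPS+USP7i against untreated. The medians of all genes were 0.0016, 9e-04 and −0.0021 in the same order. The shares and medians of all genes include many dim names, as 15601 of 34787 were well above background on all arrays, beside 7 of the 10 receptor genes. With dim probes left out, the medians of all genes in the 3 comparisons were −0.19, 0.059 and −0.092. These comparisons share arrays, the LPS arrays in the first pair and the untreated arrays in the outer pair, so their values are given side by side and not set against each other.

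The balance of all calls moved with the scaling of the arrays. Scaling to the 75th percentile in place of quantile normalization set the median of all genes at 0.40 for LPS against untreated and at 0.44 for LPS+USP7i against untreated, and the share of calls that were higher went from 38.4% to 75% and from 41.4% to 78.4%. All directions given for the called receptor genes held on both scales and relative to those medians. Nr1h2, which was not called, changed sign: LPS minus untreated was −0.19 after quantile normalization and 0.36 after 75th percentile scaling, which is −0.038 relative to the median of all genes.

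**Figure D1:**
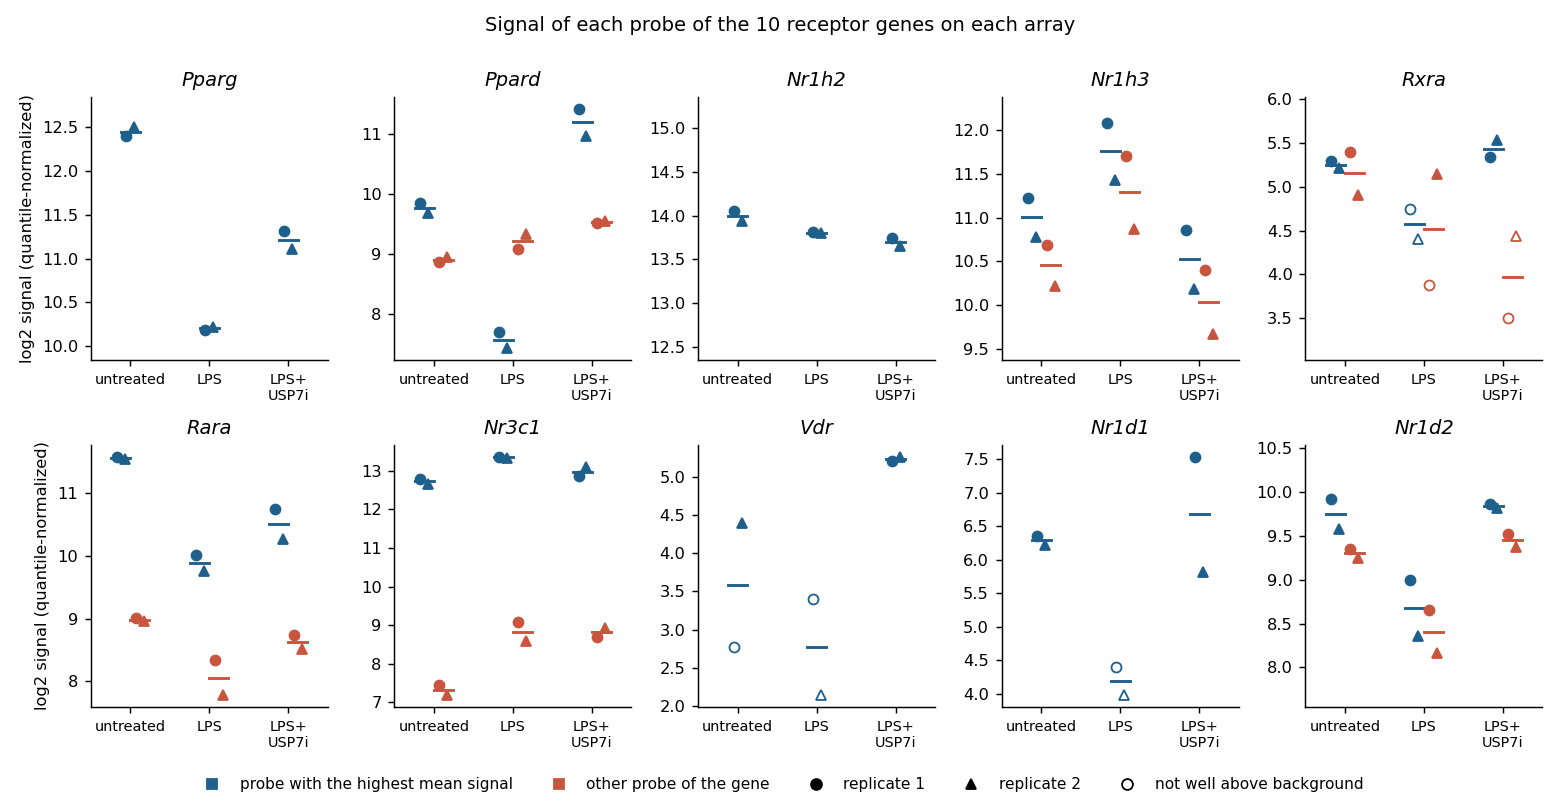
Log2 signal of every probe of the 10 receptor genes on each of the 6 arrays, with 1 panel a gene, the groups along the x axis and each point 1 array. In the panels of Pparg, Ppard and Rara the LPS points of the brighter probe lie below the untreated points, and in that of Ppard the LPS+USP7i points lie above both.

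Pparg encodes PPAR gamma, a fatty acid sensor and a lineage factor of tissue macrophages. Its probe (A_51_P106799, target NM_011146, chr6:115440213-115440272, plus strand, build mm9) is printed 10 times on the array. The log2 signals were 12.40 and 12.50 in untreated cells, 10.19 and 10.22 after LPS, and 11.31 and 11.11 after LPS+USP7i. Untreated cells were highest, LPS cells lowest and LPS+USP7i cells between them, with no overlap between any of the groups and with replicates of LPS closer together than those of the other groups. Pparg fell by 2.25 with LPS (4.75-fold, SE 0.097, adjusted p = 0.00304, lower in 4 of 4 array pairs) and was called in all 13 alternative analyses, where adjusted p ran from 4.57e-05 to 0.0321. With LPS+USP7i it was 1.01 above LPS alone (2.01-fold, SE 0.097, adjusted p = 0.0192, 4 of 4 pairs). This call was lost in 5 of 13 alternatives, namely with only the compared groups in the fit and without either untreated or either LPS array, over which the difference ran from 0.90 to 1.11 and adjusted p from 0.00159 to 0.0782. LPS+USP7i minus untreated was −1.24 (2.36-fold lower, adjusted p = 0.00868, 4 of 4 pairs), a call lost without the second untreated array, where adjusted p was 0.0578 in a range from 0.000473.

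Ppard encodes PPAR delta, a fatty acid sensor that is expressed in most tissues, and is read by 2 probes at different places of the gene. The brighter one (A_66_P124715, base 3101 of NM_011145, chr17:28438298-28438357, plus strand, build mm9) was at 9.84 and 9.68 in untreated cells, 7.69 and 7.43 after LPS, and 11.41 and 10.97 after LPS+USP7i. LPS cells were lowest and LPS+USP7i cells highest, above the untreated cells, with no overlap. By this probe Ppard fell by 2.20 with LPS (4.61-fold, SE 0.20, adjusted p = 0.00724, 4 of 4 pairs). It was called in 13 of 13 alternatives, with adjusted p up to 0.0484. LPS+USP7i was 3.63 above LPS (12.4-fold, SE 0.20, adjusted p = 0.0113, 4 of 4 pairs), and 1.43 above untreated cells (2.69-fold, adjusted p = 0.0232, 4 of 4 pairs). The call against LPS was lost with only the compared groups in the fit and without either untreated array, with differences of 3.30 to 3.86 and adjusted p of 0.000318 to 0.0561 over all 13 alternatives. That against untreated cells was lost in 6 of 13, with only the compared groups and without any 1 of the arrays other than the second LPS+USP7i array, over which adjusted p ran from 0.00215 to 0.116.

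The second Ppard probe (A_55_P2028404, base 357 of ENSMUST00000144200, chr17:28410049-28410108, plus strand, build mm9) gave another picture. It was at 8.86 and 8.95 untreated, 9.08 and 9.34 after LPS, and 9.51 and 9.54 after LPS+USP7i, so that the groups lay in the order untreated, LPS, LPS+USP7i without overlap. LPS minus untreated was 0.31 (adjusted p = 0.167) and LPS+USP7i minus LPS 0.32 (adjusted p = 0.202), and neither was called. LPS+USP7i was called above untreated cells, by 0.62 (1.54-fold, adjusted p = 0.0396, 4 of 4 pairs), a call lost in the deposited table and without any 1 of the untreated or LPS+USP7i arrays (adjusted p of 0.0135 to 0.166 over 13 alternatives). Within each array, the first probe's log2 signal minus the second's was 0.99 and 0.74 untreated, −1.39 and −1.91 after LPS, and 1.90 and 1.43 after LPS+USP7i. This difference between the probes was 2.51 lower with LPS than untreated, a change of −2.51, and 3.32 higher with LPS+USP7i than with LPS. The exact permutation p was 0.333 for each, the smallest that 2 against 2 arrays can give. The target of the second probe is a separate transcript record. With both probes averaged, Ppard differed by −0.95 for LPS minus untreated and by 1.97 for LPS+USP7i minus LPS. Both were called (adjusted p = 0.00689 and 0.00904). Both differences were smaller in size than any of the brighter probe over the 13 alternatives, which ran from −2.34 to −1.90 and from 3.30 to 3.86.

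Rara encodes RAR alpha, the retinoic acid receptor that pairs with RXR. Its brighter probe (A_55_P2095345, base 3324 of NM_001177302, chr11:98836197-98836256, plus strand, build mm9) was at 11.58 and 11.55 untreated, 10.01 and 9.75 after LPS, and 10.74 and 10.26 after LPS+USP7i. The untreated arrays were highest and the LPS arrays lowest, and no groups overlapped. Rara fell by 1.69 with LPS (3.22-fold, SE 0.20, adjusted p = 0.0128, 4 of 4 pairs). The call was lost when any 1 of the untreated or LPS arrays was left out, with differences of −1.82 to −1.54 and adjusted p of 0.000851 to 0.0752 over 13 alternatives. LPS+USP7i minus LPS was 0.62 (SE 0.20, adjusted p = 0.173) and was not called. LPS+USP7i minus untreated was −1.06 (2.09-fold lower, adjusted p = 0.0461, 4 of 4 pairs). This call was lost with only the compared groups and without any 1 of the arrays other than the first LPS+USP7i array, with adjusted p of 0.00841 to 0.178. The second Rara probe (A_55_P2095342, base 2477 of the same transcript) was at 9.003 and 8.97 untreated, 8.34 and 7.775 after LPS, and 8.74 and 8.52 after LPS+USP7i. Its groups stood in the same order without overlap. Its LPS minus untreated was −0.93 (adjusted p = 0.0657), which missed the threshold and was called in 4 of 13 alternatives. Its LPS+USP7i minus untreated was −0.36 (adjusted p = 0.474), and the mean of both probes gave −0.71 (adjusted p = 0.0973), which was not called.

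The promoters shown come from the 3 receptor genes called lower with LPS. Windows of 250 bases before to 50 bases after each gene start were taken from RefSeq on build GRCm38.p6, another build than that of the probes. The table held 9 of the 10 receptor genes, all but Nr3c1, with 16 windows. Each window was searched on both strands for AGGTCA, the core hexamer that many nuclear receptors bind, for CACGTG, the E-box of the clock factors, and for the kappaB motif of NF-kappaB. AGGTCA was in 5 of the 16 windows and in 16.3% of 32851 promoters, CACGTG in 2 and in 7.15%, and the kappaB motif in 2 and in 4.51%. Both windows with CACGTG, which are also those with the kappaB motif, are overlapping Rara windows that hold the same matches. A match is a description of letters and no evidence of binding. Of Pparg the windows with AGGTCA or CACGTG were picked for printing, and of Rara the first window with CACGTG. The lines give Pparg at chr6:115360894-115361193 and at chr6:115362099-115362398, Ppard at chr17:28232504-28232803 and Rara at chr11:98937446-98937745, each on the plus strand and from 5′ to 3′, with AGGTCA or CACGTG in capitals.
Pparg first start: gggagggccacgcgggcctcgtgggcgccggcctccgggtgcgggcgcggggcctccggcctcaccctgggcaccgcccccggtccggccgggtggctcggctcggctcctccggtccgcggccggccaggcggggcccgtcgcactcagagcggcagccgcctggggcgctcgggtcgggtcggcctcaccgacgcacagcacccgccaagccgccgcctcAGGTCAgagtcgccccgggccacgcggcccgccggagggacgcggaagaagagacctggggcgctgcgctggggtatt
Pparg second start: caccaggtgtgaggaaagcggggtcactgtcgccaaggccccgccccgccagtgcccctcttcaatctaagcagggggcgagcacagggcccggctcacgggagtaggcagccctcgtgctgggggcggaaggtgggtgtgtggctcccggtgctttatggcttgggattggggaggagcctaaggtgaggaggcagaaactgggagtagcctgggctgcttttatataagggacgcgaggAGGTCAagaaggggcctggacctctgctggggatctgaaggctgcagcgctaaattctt
Ppard: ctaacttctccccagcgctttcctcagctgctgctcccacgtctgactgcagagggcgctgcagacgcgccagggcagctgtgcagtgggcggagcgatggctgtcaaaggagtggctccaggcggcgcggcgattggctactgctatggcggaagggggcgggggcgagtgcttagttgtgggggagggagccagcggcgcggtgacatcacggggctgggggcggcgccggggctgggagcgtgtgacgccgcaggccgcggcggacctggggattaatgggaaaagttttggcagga
Rara: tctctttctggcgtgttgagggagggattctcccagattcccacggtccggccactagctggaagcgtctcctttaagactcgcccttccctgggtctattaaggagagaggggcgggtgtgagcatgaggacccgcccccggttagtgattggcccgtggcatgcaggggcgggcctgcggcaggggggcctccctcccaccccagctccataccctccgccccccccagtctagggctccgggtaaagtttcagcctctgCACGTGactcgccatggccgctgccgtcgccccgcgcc
AGGTCA lay at −28 and −9 from the Pparg starts, and CACGTG at 13 and the kappaB motif at −227 from the Rara start. Another Pparg window, at chr6:115421816-115422115 and not printed, held none of the motifs. The Ppard window held none of these motifs, nor did the Rara window at chr11:98939461-98939760, which was not printed. The other windows with AGGTCA were 1 of Rxra, 1 further window of Rara and that of Nr1d2.

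The LXRs are read by Nr1h2, the form found in most tissues, and Nr1h3, the form rich in macrophages and liver. Nr1h2 (A_55_P1978481, chr7:51805013-51805072, minus strand, build mm9) was at 14.06 and 13.93 untreated, 13.81 and 13.80 after LPS, and 13.75 and 13.65 after LPS+USP7i. The differences were small, −0.19, −0.11 and −0.30 for LPS minus untreated, LPS+USP7i minus LPS and LPS+USP7i minus untreated, and none was called in limma (adjusted p = 0.217, 0.548 and 0.0947). Under 75th percentile scaling the first was called with the other sign (0.36, adjusted p = 0.0279, where alternatives ran to 0.632).

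Nr1h3 was at 11.23 and 10.78 untreated, 12.08 and 11.44 after LPS, and 10.86 and 10.19 after LPS+USP7i by its brighter probe (A_66_P120249, chr2:91024250-91024309, minus strand, build mm9). LPS arrays were highest and did not overlap with either other group, and in each group the first array was above the second. LPS minus untreated was 0.75 (SE 0.37, adjusted p = 0.304) and LPS+USP7i minus LPS −1.23 (SE 0.37, adjusted p = 0.148), neither of which passed. The latter was called in 2 of 13 alternatives, with normexp correction and with dim probes left out (adjusted p of 0.0362 to 0.361). The second probe (A_55_P2128597, in the same transcript) gave 0.83 and −1.25, with the same order of group means, and was called in 0 of 13. With a block for replicate number, which is not among the 13, both differences were called by both probes. Nr1h2, Nr1h3 and Nr3c1 were the 3 receptor genes whose representative probe was lower with LPS+USP7i than with LPS, and none of them was called in the main fit.

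Rxra encodes RXR alpha, the partner of PPARs, LXRs, RARs and the vitamin D receptor, and its 2 probes lay near background. The first (A_51_P307370, chr2:27615316-27615375, plus strand, build mm9) was at 5.29 and 5.21 untreated, 4.745 and 4.41 after LPS, and 5.34 and 5.54 after LPS+USP7i, and was not well above background on the LPS arrays. Such probes get a bound in place of a fold: the bright group's mean is set against the dim group's after each dim array's value was raised, where lower, to the lowest signal among that array's probes well above background. By this bound Rxra was at least 1.53-fold lower with LPS than untreated (adjusted p = 0.0576, 4 of 4 pairs) and at least 1.74-fold higher with LPS+USP7i than with LPS (adjusted p = 0.0517, 4 of 4 pairs), and neither passed. These differences were called in 2 and 3 of 13 alternatives, in that order. The second probe (A_55_P2074331) was well above background on both untreated arrays and the second LPS array, at 5.3998 and 4.91 untreated, 3.88 and 5.15 after LPS, and 3.51 and 4.44 after LPS+USP7i. Its mean was lowest with LPS+USP7i, unlike that of the first probe, with overlap between LPS and LPS+USP7i. It was at least 1.83-fold lower with LPS+USP7i than untreated (adjusted p = 0.342, 4 of 4 pairs), which did not pass, where LPS+USP7i minus untreated was 0.19 for the first probe (adjusted p = 0.567).

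Vdr encodes the vitamin D receptor. Its probe (A_52_P334562, chr15:97685136-97685195, minus strand, build mm9) was at 2.78 and 4.39 untreated, 3.40 and 2.14 after LPS, and 5.201 and 5.26 after LPS+USP7i. It was well above background on 3 arrays, both with LPS+USP7i and the second untreated one, and untreated and LPS values overlapped. LPS+USP7i was at least 1.68-fold higher than LPS (adjusted p = 0.146, 4 of 4 pairs), which did not pass. This difference was called in 2 of 13 alternatives, with normexp correction and with dim probes left out.

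Nr3c1, the glucocorticoid receptor, was the receptor gene that LPS raised. Its brighter probe (A_55_P1967885, base 4827 of NM_008173) was at 12.79 and 12.67 untreated, 13.37 and 13.35 after LPS, and 12.86 and 13.10 after LPS+USP7i. The LPS arrays were highest and LPS+USP7i lay between the groups, with no overlap. Nr3c1 rose by 0.63 with LPS (1.55-fold, SE 0.11, adjusted p = 0.0315, 4 of 4 pairs). The call was lost when any 1 of the untreated or LPS arrays was left out, with differences of 0.57 to 1.09 and adjusted p of 0.00646 to 0.143 over 13 alternatives. The call was also lost with a block for replicate number. LPS+USP7i minus LPS was −0.38 (adjusted p = 0.142) and LPS+USP7i minus untreated 0.25 (adjusted p = 0.285).

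The second Nr3c1 probe (A_52_P254174, base 2285 of the same transcript) was at 7.44 and 7.17 untreated, 9.07 and 8.58 after LPS, and 8.70 and 8.94 after LPS+USP7i. Here both treated groups lay above the untreated one and overlapped with each other. It rose by 1.52 with LPS (2.87-fold, SE 0.22, adjusted p = 0.0199, 4 of 4 pairs) and by 1.51 with LPS+USP7i against untreated cells (2.85-fold, adjusted p = 0.0258, 4 of 4 pairs). LPS+USP7i minus LPS was −0.0078 (adjusted p = 1). The mean of both probes gave 1.07 for LPS minus untreated and 0.88 for LPS+USP7i minus untreated (adjusted p = 0.0152 and 0.0312), both called. The first call was lost without either untreated or the first LPS array and the second without any 1 of the untreated or LPS+USP7i arrays, with adjusted p of 0.00272 to 0.101 and 0.00352 to 0.12 over 13 alternatives. Within each array the first probe minus the second was 5.35 and 5.49 untreated, 4.30 and 4.76 after LPS, and 4.15 and 4.17 after LPS+USP7i, so this difference was smaller on all 4 treated arrays (exact permutation p = 0.333 for each treated group against untreated, the smallest possible).

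Nr1d1 and Nr1d2 encode REV-ERB alpha and beta. The Nr1d1 probe (A_51_P223776, chr11:98630526-98631028, minus strand, build mm9, a span of 503 bases) was at 6.36 and 6.22 untreated, 4.40 and 3.98 after LPS, and 7.54 and 5.82 after LPS+USP7i. LPS arrays were lowest and not well above background, while the LPS+USP7i arrays lay 1 above and 1 below the untreated pair. Nr1d1 was at least 3.49-fold lower with LPS than untreated (adjusted p = 0.114, 4 of 4 pairs) and at least 4.57-fold higher with LPS+USP7i than with LPS (adjusted p = 0.106, 4 of 4 pairs), and neither passed. The former was called in 5 of 13 alternatives (adjusted p of 0.0216 to 0.324) and the latter in 2 (0.0267 to 0.298), with dim probes left out and without the second LPS+USP7i array. LPS+USP7i minus LPS, without the floor of the bound, was 2.49. It was 1.63 without the first LPS+USP7i array and 3.35 without the second. LPS+USP7i minus untreated was 0.39 (SE 0.63, adjusted p = 0.828) and −0.47 without the first LPS+USP7i array.

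Nr1d2 has 2 probes, and the files place the brighter one (A_55_P2148534, target BC096461, chr19:40271435-40271494, build mm9) on another chromosome than the second (A_52_P303891, target NM_011584, chr14:19037253-19037312, minus strand, build mm9). The second was at 9.35 and 9.25 untreated, 8.65 and 8.16 after LPS, and 9.53 and 9.37 after LPS+USP7i. The brighter was at 9.92 and 9.57, 9.001 and 8.36, and 9.87 and 9.82 in the same order of groups. By both probes the LPS arrays were below all others. LPS minus untreated was −0.89 (SE 0.19, adjusted p = 0.0507) and LPS+USP7i minus LPS 1.04 (SE 0.19, adjusted p = 0.0559) by the second probe, and −1.07 (adjusted p = 0.0722) and 1.16 (adjusted p = 0.0857) by the brighter, in 4 of 4 pairs each. All 4 missed the threshold, which does not show that the groups were alike, and the second probe's differences were each called in 5 of 13 alternatives, with adjusted p of 0.0163 to 0.194 and 0.00814 to 0.186. The mean of both probes gave −0.98 for LPS minus untreated (adjusted p = 0.0487), which was called, and 1.10 for LPS+USP7i minus LPS (adjusted p = 0.057), which was not. With a block for replicate number, both probes were called for LPS minus untreated.

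**Figure D2:**
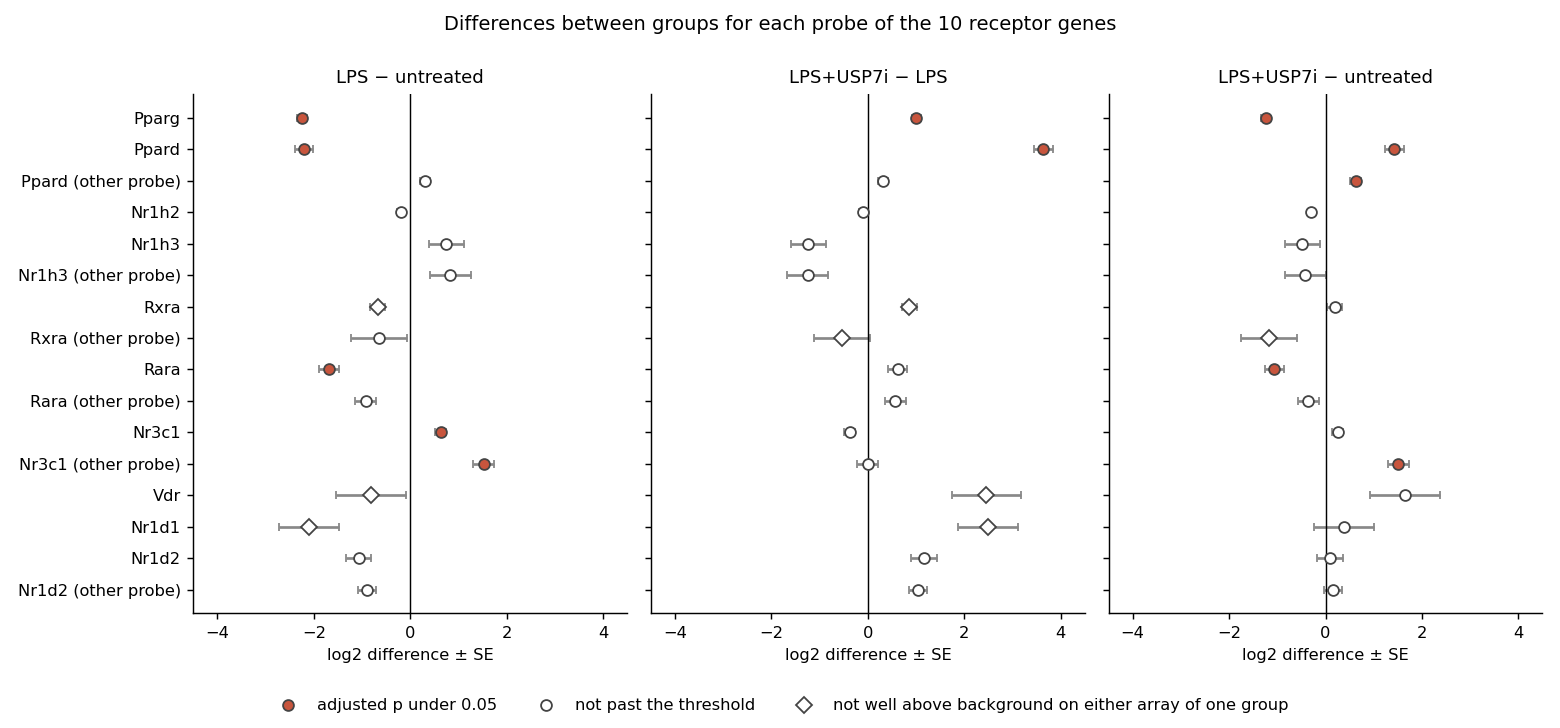
Log2 difference of each of the 16 probes with its SE in the 3 comparisons, LPS minus untreated, LPS+USP7i minus LPS and LPS+USP7i minus untreated. Filled marks passed an adjusted p of 0.05, with 2 probes higher and 3 lower for LPS, 2 higher with the inhibitor against LPS, and 3 higher and 2 lower against untreated cells.

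Genes around the receptors were read from 9 lists of 138 genes in all. Beside the counts below, 12.8% of all genes tested were called lower and 7.98% higher with LPS. With LPS+USP7i these shares were 4.27% and 5.52% against LPS, and 8.71% and 6.16% against untreated cells. Of 39 other nuclear receptors, 20 were above background on some array. LPS raised 2 and lowered 6 of them (median difference 4e-04, beside 0.0016 over all genes), LPS+USP7i against LPS gave 2 higher and 2 lower, and LPS+USP7i against untreated 1 higher and 5 lower. Nr2f6 fell by 1.73 with LPS (adjusted p = 0.00759), Nr2c2 by 1.64 (adjusted p = 0.00857) and Rxrb, another partner RXR, by 1.57 (adjusted p = 0.00635), each in 4 of 4 pairs. Rora, an activator that shares DNA sites with the REV-ERBs, was at 8.497 and 8.67 untreated, 7.06 and 7.13 after LPS, and 9.25 and 8.69 after LPS+USP7i, so that the LPS arrays were lowest. It was 1.88 higher with LPS+USP7i than with LPS (3.67-fold, adjusted p = 0.0246, 4 of 4 pairs). Rarg was lower with LPS+USP7i, by −1.67 against LPS (adjusted p = 0.0285) and −1.26 against untreated (adjusted p = 0.0357), and Nr4a2 was 1.88 higher than untreated (adjusted p = 0.0216), where LPS minus untreated was 1.15 (adjusted p = 0.0537) and LPS+USP7i minus LPS 0.73 (adjusted p = 0.195), neither called. Nr4a3, counted above as higher with LPS and as lower with LPS+USP7i against LPS, was well above background on no array, and no fold is given.

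Of 16 coregulators, the proteins that receptors recruit, LPS raised 1 and lowered 5 (median −0.35), 0 were higher and 1 lower with LPS+USP7i against LPS in limma (2 and 6 at an unadjusted p under 0.05, median −0.15), and 1 was higher and 7 lower with LPS+USP7i against untreated (median −0.40). The coactivator gene Ncoa3 fell by 1.51 with LPS (adjusted p = 0.00893), while Ppargc1b, a coactivator of mitochondrial genes, rose by 2.35 (adjusted p = 0.0444), each in 4 of 4 pairs. The call of Ncoa3 was kept in 12 of 13 alternatives and that of Ppargc1b in 6, with differences of 1.18 to 2.77 and adjusted p up to 0.165. LPS+USP7i minus LPS was −0.47 for Ncoa3 and −2.23 for Ppargc1b (adjusted p = 0.176 and 0.0757), not called. Against untreated cells, LPS+USP7i differed by −1.98 for Ncoa3, −1.46 for Ncoa2 and −1.42 for Ncoa1 (adjusted p = 0.00835, 0.011 and 0.00791), and LPS alone had lowered Ncoa2 and Ncoa1 by −0.73 and −0.81 (adjusted p = 0.0352 and 0.0148). Ncoa1 was also lower than with LPS alone, by −0.60 (adjusted p = 0.0488).

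Of 24 genes that make, bind or break down ligands, 2 rose and 1 fell with LPS (median 0.11), 1 was higher and 1 lower with LPS+USP7i against LPS (median 0.062), and 2 were higher and 1 lower against untreated (median 0.24). Ch25h, which makes the LXR ligand 25-hydroxycholesterol, was at 6.91 and 7.57 untreated, 14.74 and 14.53 after LPS, and 12.04 and 12.53 after LPS+USP7i. It rose by 7.39 with LPS (168.1-fold, adjusted p = 0.0029) and was lower with LPS+USP7i than with LPS, by −2.35 (5.09-fold, adjusted p = 0.0293), with no overlap. Hmox1, the oxygenase that breaks down heme, the REV-ERB ligand, was at 14.67 and 14.24 untreated, 13.85 and 13.30 after LPS, and 18.06 and 18.15 after LPS+USP7i. Both arrays with the inhibitor stood far above the others, 4.53 above LPS (23.1-fold, SE 0.25, adjusted p = 0.0113) and 3.65 above untreated cells (12.6-fold, adjusted p = 0.0074), in 4 of 4 pairs each. Dhrs3, which reduces retinal to retinol, fell by 1.53 with LPS (adjusted p = 0.00465) and was also lower with LPS+USP7i than untreated (−1.34, adjusted p = 0.0083), and Crabp2, a carrier of retinoic acid, rose by 1.20 with LPS (adjusted p = 0.0287).

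Among 14 PPAR target genes, most of which serve fatty acid oxidation and storage, 0 rose and 6 fell with LPS in limma (0 and 8 at an unadjusted p under 0.05, median −0.60). With LPS+USP7i against LPS 0 were called in limma (5 higher and 1 lower unadjusted, median 0.17), and against untreated 0 were higher and 4 lower (0 and 6 unadjusted, median −0.32). Angptl4, an inhibitor of lipoprotein lipase, was at 11.42 and 10.77 untreated, 4.34 and 4.51 after LPS, where it was not well above background, and 7.92 and 6.37 with LPS+USP7i. It was at least 97.5-fold lower with LPS (adjusted p = 0.00729, 4 of 4 pairs) and 15.4-fold lower with LPS+USP7i than untreated (−3.95, adjusted p = 0.0284). Over the alternatives the latter difference ran from −4.72 to −3.17, and its call was kept in 8 of 13. Plin2, a coat protein of lipid droplets, fell by 0.76 with LPS (adjusted p = 0.0287, 4 of 4 pairs), a call kept in 7 of 13 alternatives, with differences of −0.86 to −0.18 and adjusted p up to 0.27. Against untreated cells Cpt1a and Ech1, enzymes of fatty acid oxidation, were lower with LPS+USP7i (−0.89 and −0.62, adjusted p = 0.0124 and 0.0121). Both had also fallen with LPS alone, by −0.71 and −0.65 (adjusted p = 0.0139 and 0.00795), and LPS+USP7i minus LPS was −0.18 and 0.026, not called.

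Of 15 LXR target genes, all above background on some array, 0 were higher and 1 lower with LPS in limma (0 and 3 at an unadjusted p under 0.05, median −0.52). With LPS+USP7i 1 was higher and 0 lower against LPS (1 and 1 unadjusted, median −0.12), and 0 were called against untreated in limma (0 higher and 4 lower unadjusted, median −0.40). Both calls were of Fasn, the fatty acid synthase, at least 1.92-fold lower with LPS (adjusted p = 0.0369) and at least 2.16-fold higher with LPS+USP7i than with LPS (adjusted p = 0.0489). Of 8 RAR target genes, 2 were higher and 1 lower with LPS (median 0.34), 0 were called with LPS+USP7i against LPS in limma (2 higher and 1 lower at an unadjusted p under 0.05, median 0.14), and 1 was higher and 1 lower against untreated (median 0.40). Tgm2, a transglutaminase, rose by 1.24 with LPS (adjusted p = 0.0107) and was 1.33 above untreated cells with LPS+USP7i (adjusted p = 0.013), while LPS+USP7i minus LPS was 0.088 (adjusted p = 0.801). None of 5 VDR target genes, of which 3 were above background on some array, was called in limma in any of the 3 comparisons, and at an unadjusted p under 0.05 there were 0, 0 and 1 higher and 0 lower (medians 0.12, 0.13 and 0.069).

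**Figure D3:**
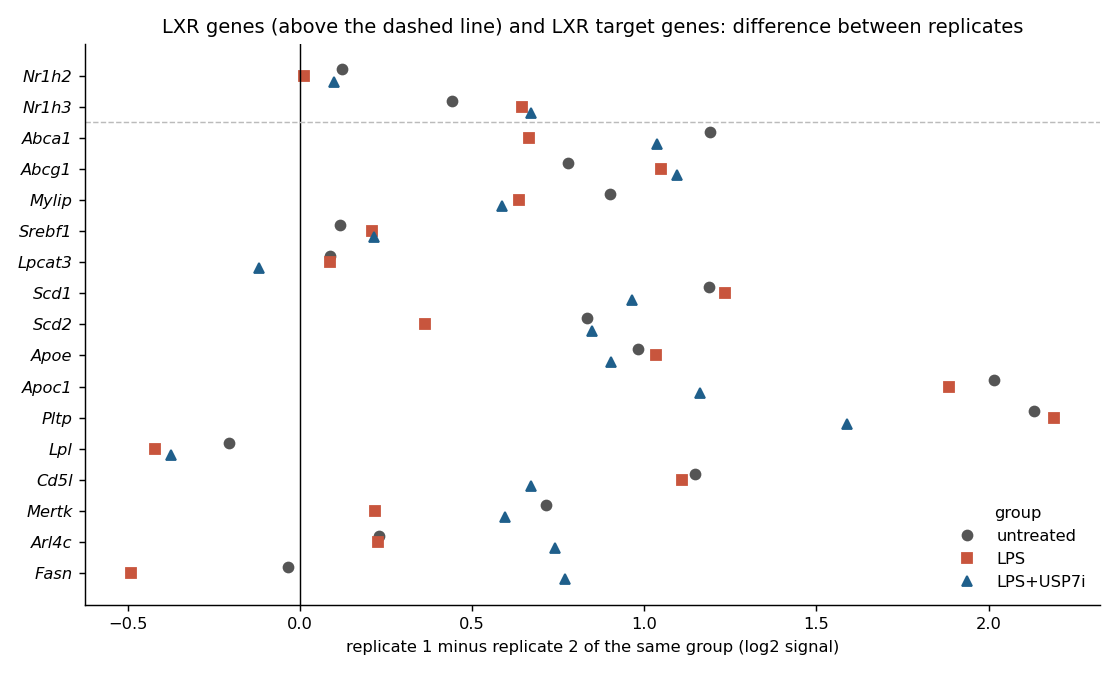
Log2 signal of replicate 1 minus replicate 2 within each group, for Nr1h2, Nr1h3 (above the dashed line) and the 15 LXR target genes, with 1 mark a group. Most marks lie right of 0, and 12 of the 14 target genes above background on all arrays have all 3 marks there.

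Of 11 glucocorticoid receptor target genes, LPS raised 1 and lowered 4 (median −0.073), 5 were higher and 0 lower with LPS+USP7i than with LPS in limma (7 and 0 at an unadjusted p under 0.05, median 0.77, beside 9e-04 over all genes), and 3 were higher and 1 lower than untreated (median 0.11). Tsc22d3, which encodes the anti-inflammatory protein GILZ, was at 12.84 and 12.62 untreated, 8.70 and 8.67 after LPS, and 11.25 and 10.71 after LPS+USP7i. The LPS arrays were lowest and those with the inhibitor lay between, without overlap. Tsc22d3 fell by 4.04 with LPS (16.5-fold, SE 0.21, adjusted p = 0.0036), was 2.29 above LPS with LPS+USP7i (4.90-fold, adjusted p = 0.0184), and was 3.36-fold below untreated cells (adjusted p = 0.0183), in 4 of 4 pairs each. Dusp1, a phosphatase that turns off MAP kinases, was at 10.05 and 10.34 untreated, 10.38 and 10.34 after LPS, and 13.02 and 12.41 after LPS+USP7i. It was 2.36 above LPS with the inhibitor (5.12-fold, adjusted p = 0.0212) and 2.52 above untreated cells (adjusted p = 0.0119). Errfi1 rose by 1.73 with LPS (adjusted p = 0.00606) and was 2.32 above untreated cells with LPS+USP7i (adjusted p = 0.00638), while LPS+USP7i minus LPS was 0.59 and not called (adjusted p = 0.0894). Zbtb16 was at least 4.53-fold lower with LPS than untreated (adjusted p = 0.0371).

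Of 17 circadian clock genes, the family that the REV-ERBs regulate, 1 rose and 7 fell with LPS (median −0.77), 5 were higher and 1 lower with LPS+USP7i than with LPS (median 0.76), and 3 were higher and 1 lower than untreated (median 0.18). Per1, which is also on the list of glucocorticoid receptor targets, was at 11.17 and 11.08 untreated, 7.57 and 7.37 after LPS, and 10.36 and 9.36 after LPS+USP7i. It fell by 3.65 with LPS (12.6-fold, adjusted p = 0.00883) and was 2.39 higher with LPS+USP7i than with LPS (5.24-fold, adjusted p = 0.039), in 4 of 4 pairs each. Dbp and Tef, PAR bZIP factors of clock output, fell by 2.77 and 2.65 with LPS (adjusted p = 0.0319 and 0.0116). Bhlhe41 and Bhlhe40, repressors of the clock, were 2.10 and 1.95 higher with LPS+USP7i than with LPS (adjusted p = 0.0202 and 0.0475). Against untreated cells, Bhlhe41 was 1.11 higher and Nfil3, a repressor that competes with Dbp, 1.02 higher with LPS+USP7i (adjusted p = 0.0474 and 0.0159), while Per2 was at least 1.09-fold lower (adjusted p = 0.0111). Nfil3 had risen by 1.99 with LPS alone (adjusted p = 0.004) and was lower with LPS+USP7i than with LPS, by −0.97 (adjusted p = 0.0261). Per2, counted above as lower with LPS, was not well above background on the LPS arrays, and no fold is given for LPS minus untreated.

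Of 59 differences of named list genes, Tnf, Il6 and Usp7, 55 were called, and 14 of these stayed called in all alternatives. Lost in 6 or more were 12, those of Plin2 and Ppargc1b for LPS, of Ncoa1, Tnf, Ch25h, Fasn, Nr4a3, Rarg, Bhlhe40 and Bhlhe41 for LPS+USP7i against LPS, and of Rarg and Bhlhe41 against untreated cells. Of the 55, the number lost was 19 with only the compared groups in the fit, 39 and 40 without the first or the second untreated array, 26 and 24 without an LPS array, and 11 and 9 without an LPS+USP7i array. Without either untreated array 0 genes were called in limma in LPS+USP7i against LPS, while 4330 were higher and 3673 or 3674 lower at an unadjusted p under 0.05.

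**Figure D4:**
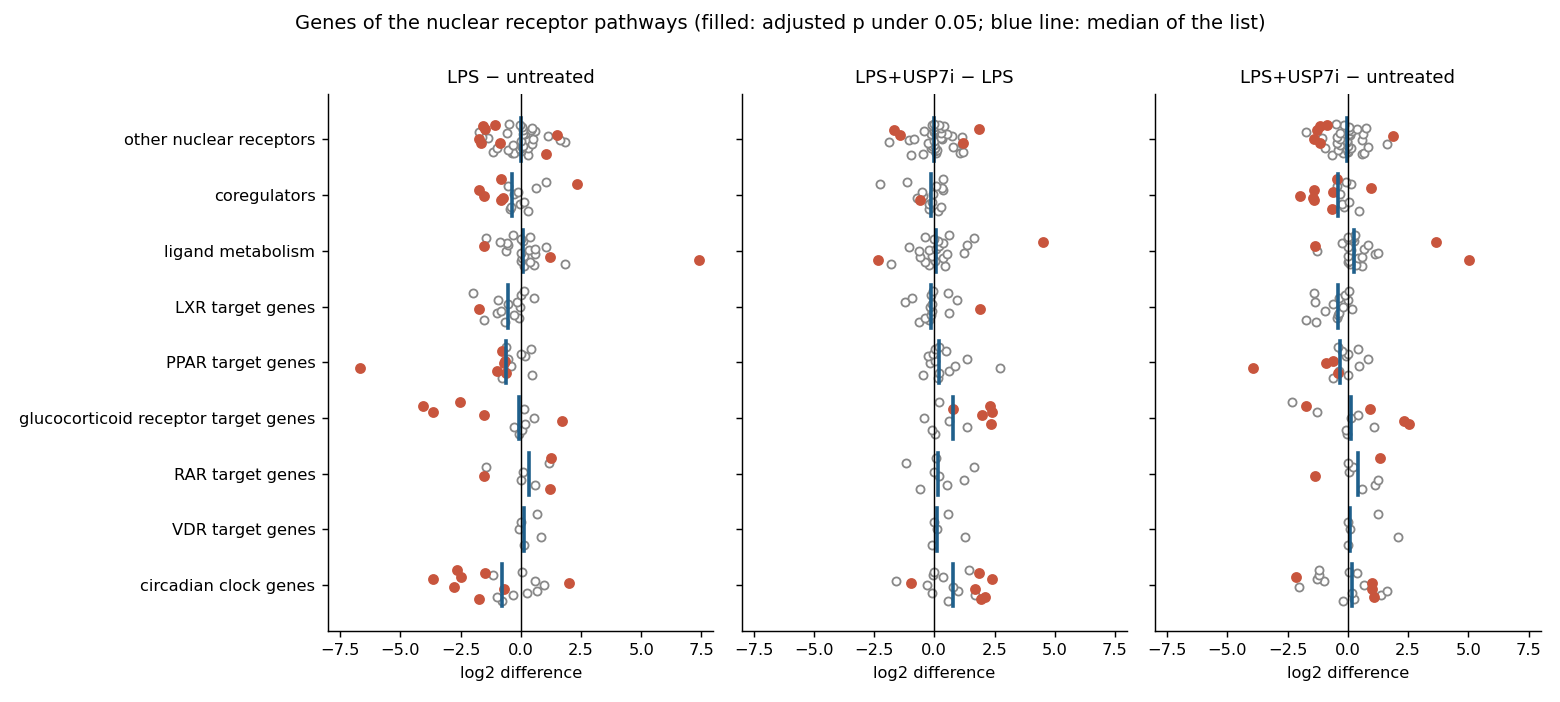
Log2 difference of every gene of the 9 pathway lists in the 3 comparisons, 1 point a gene, with the median of each list. The clock list and the glucocorticoid receptor target list have medians of 0.76 and 0.77 for LPS+USP7i minus LPS, and the PPAR target list a median of −0.60 for LPS minus untreated.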

How the data were processed

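RNA from 6 cultures was labelled with Cy3 and hybridized to single-colour Agilent mouse arrays. Per the file headers, the authors deposited for each array spot intensity values, corrected for background by Agilent Feature Extraction 10.7.3.1, and the authors deposited a table of log2 values, made with quantile normalization in limma according to their methods. Here the processed intensity of 59305 spots an array that are not controls was taken to log2 and quantile-normalized, outlier-flagged spots were left out, and spots of a probe were averaged. All 3 groups were fitted together in limma 3.58.1 under R 4.3.3 (lmFit and eBayes, 3 residual degrees of freedom), with Benjamini-Hochberg adjustment over 55680 probes and a threshold of 0.05. The alternatives were 75th percentile scaling, background correction by normexp (offset 50), use of the deposited log2 table, dim probes left out, outlier-flagged spots kept, a trended prior, only the compared groups in the fit, and each array left out, 13 in all, and beside these a replicate block and the mean of all probes of a gene. With an array left out, the lone array of its group is assumed to vary like the other groups. The receptor genes and the lists were chosen with earlier results of these data known. Named from each list were up to 3 genes past the threshold with the largest absolute difference in a comparison, with Tnf, Il6 and Usp7 beside them. Set tests were not used here.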

Additional observations from a re-analysis of the deposited data

How the results depend on the processing

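Counts of the 10 receptor genes and of all genes called moved with these settings, and the cause was not tested. For LPS minus untreated, 75th percentile scaling gave 2 receptor genes higher, 6 lower and 16198 genes called. Leaving dim probes out gave 6 receptor genes lower, beside 5192 genes lower and 8345 called. That setting kept 25084 probes, while genes were counted by 1 probe each, so 25084 is not the number of genes tested. The mean of all probes gave 4 receptor genes lower (with Nr1d2), beside 4502 genes. Without 1 array, 0 to 1 were higher and 2782 to 6609 genes were called. For LPS+USP7i minus LPS, normexp correction gave 5 higher, 1 lower and 5257 genes, leaving dim probes out 6 higher, 1 lower and 5134 genes, and a block for replicate number 1 lower (Nr1h3). The labels do not say what arrays of the same number share, and on the slide they share an index of their position. With only the compared groups in the fit 0 receptor genes were higher and 0 genes were called in limma (4330 higher and 3674 lower at an unadjusted p under 0.05), and without 1 array 0 to 3 receptor genes were higher and 0 to 3092 genes called. For LPS+USP7i minus untreated, 75th percentile scaling gave 15536 genes called, the compared groups alone 0 receptor genes higher, 1 lower and 3301 genes, and the mean of all probes 2 higher and 1 lower, beside 2233 and 2990 of 34787 genes. Without 1 array these were 0 to 1 higher, 0 to 2 lower and 1037 to 3860 genes. Differences that were not called changed sign for Nr1h2 under 75th percentile scaling (0.36 for LPS minus untreated, 0.011 for LPS+USP7i minus untreated), for the second Nr3c1 probe in LPS+USP7i minus LPS (0.013 with normexp, 0.020 in the deposited table, −0.25 to 0.24 without 1 array, with 0.24 without the first LPS array and 0.11 without the first LPS+USP7i array), for the second Rxra probe there (−1.18 to 0.091 without 1 array, the latter without the second LPS array), for Usp7 there (−0.30 to 0.026, the latter without the first LPS+USP7i array), and in LPS+USP7i minus untreated for Nr1d2 (−0.081 to 0.27, the former without the second untreated array), Nr1d1 (−0.47 to 1.25, the former without the first LPS+USP7i array) and Rxra (−0.50 as the mean of its probes). With the replicate block, 7638, 2549 and 5488 genes were called in the 3 comparisons. Nr1h3 was then called for LPS minus untreated and for LPS+USP7i minus LPS by both of its probes, both Nr1d2 probes were called for LPS minus untreated, the brighter Nr3c1 probe was not, and no other receptor probe's call changed, while 9 calls of the named list genes were lost. Across 20705 probes, which are not independent replicates, the difference between replicates correlated between groups with r = 0.468 (untreated and LPS), 0.398 (untreated and LPS+USP7i) and 0.422 (LPS and LPS+USP7i). Signal near background limits Rxra, Vdr and Nr1d1 to bounds.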

Other observations

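The LXR target genes, many of which carry cholesterol out of the cell or remodel its lipids, differed between the replicates of a group. Of 14 LXR target genes well above background on all 6 arrays, 12 (85.7%) were higher on replicate 1 than on replicate 2 in all 3 groups, and 1 (7.14%) was higher on replicate 2 in all 3. Of 15601 gene names above background on all arrays, 3878 (24.9%) and 4111 (26.4%) were. The median of replicate 1 minus replicate 2 over these LXR targets was 0.87 for the untreated pair, 0.65 for the LPS pair and 0.79 for the LPS+USP7i pair. Pltp, a phospholipid transfer protein, was at 13.56 and 11.43 untreated, 14.13 and 11.94 after LPS, and 12.91 and 11.33 after LPS+USP7i. Apoe, the apolipoprotein of cholesterol efflux, was at 17.52 and 16.53, 17.27 and 16.24, and 17.08 and 16.18 in the same order, and the efflux transporter gene Abca1 at 12.83 and 11.64, 11.90 and 11.23, and 11.44 and 10.41. Of 7 receptor genes above background on all arrays, Nr1h3 among them, 5 (71.4%) were higher on replicate 1 in all 3 groups and 0 on replicate 2. Of 12 PPAR target genes 2 (16.7%) were higher on replicate 1 and 6 (50%) on replicate 2 in all 3. The summed B cell markers and the T and NK cell markers were higher on replicate 1 in each group. The summed dendritic cell markers were higher on replicate 2, though none of them was above background on the untreated arrays. Of the markers of neutrophils and their precursors, Ly6g and Mpo were higher on replicate 1 in each group. Elane, Camp and Ngp were higher on replicate 2 in each group, and Prtn3 went both ways. Arrays of the same replicate number share an index of their slide position. Pltp, Apoe and Abca1 were chosen after their values were seen, and the source of this difference between replicates was not tested.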
